A study of Bos taurus with 6 samples.

Results

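Bovine chromosome 19 carried 3627 of the 63540 H3K4me3 peaks called in 3 ChIP-seq replicates of day 8 blastocysts, namely 1260 of the 22404 peaks of replicate 1, 1085 of the 19076 of replicate 2 and 1282 of the 22060 of replicate 3. The members were chosen by position, as every peak that the peak caller placed on this chromosome in each list, so they were also selected on the caller's score, whose lowest value on the chromosome was 50.12, 50.02 and 50.03 in replicates 1, 2 and 3. The chromosome itself was singled out with its high peak density already known, and its density is therefore given as a description without a test. The lists hold no reads and no chromosome lengths, so the length of each chromosome was taken up to the end of its last peak in any list, which is 64.01 Mb for chromosome 19.

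All embryos were produced by IVF and not sexed, cultured in serum-free medium with BSA under 5% oxygen, and collected at 192 h, when blastocysts from the early stage to those that had left the zona pellucida were pooled. Each replicate was a pool of approximately 11 such embryos, immunoprecipitated with 3 µg of an antibody against H3K4me3. The other 3 samples are the input libraries of the same replicates, chromatin taken without antibody, which served as the reference for peak calling and have no list of their own here. A pool averages trophectoderm and inner cell mass, so a peak cannot be given to either lineage, and the spread between replicates is that between pools. The pools came from 2 IVF procedures, so at least 2 of the 3 shared a procedure, and which ones is not given in the sources used here. The SDs and tests over replicates below treat the pools as 3 samples.

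Trimethylation of lysine 4 of histone H3 is written by the SET1 and MLL complexes and is best known at the promoters of active or poised genes, where it forms a domain around the transcription start site. Broad domains of the mark are known in many cell types at genes of cell identity, and clusters of peaks arise where promoters and CpG islands lie close together. Bovine chromosome 19 is known as a gene-rich autosome that shares its gene content with human chromosome 17. It holds the HOXB genes, the type I keratin genes and the skeletal myosin heavy chain genes, besides genes used in every cell such as RPL19 and ACTG1 and chromatin regulators such as SUZ12, a subunit of Polycomb repressive complex PRC2, and KDM6B, a demethylase of H3K27me3. RefSeq's gene table of the later assembly ARS-UCD2.0 places the HOXB genes, RPL19, ACTG1, SUZ12 and KDM6B on this chromosome. This is background and no result of these data. The peaks are on UMD 3.1.1 (bosTau8), whose gene models were not used here, so regions are given by position and none is tied to a gene.

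Chromosome 19 held more than 2 times as many peaks per Mb as the median autosome, and a larger share of its length lay under peaks than on any other autosome in all 3 lists. Peak density was 19.7, 17.0 and 20.03 per Mb in replicates 1, 2 and 3, or 18.9 ± 1.69 (SD, n = 3). The medians over the other 28 autosomes were 8.26, 6.92 and 8.15 per Mb, which gives ratios between 2.38 and 2.46. Chromosome 18 had 18.9 ± 1.82 per Mb, and the order of the 2 chromosomes changed with the list, chromosome 19 ranking second in replicates 1 and 3 and first in replicate 2. Within each list their densities were close, at 19.69 against 19.93, 16.95 against 16.83 and 20.03 against 20.05 per Mb in replicates 1, 2 and 3. Peaks covered 5.10%, 3.80% and 4.25% of chromosome 19, against 4.82%, 3.63% and 4.09% of chromosome 18 and a median of 1.99%, 1.51% and 1.65% of the other autosomes. The chromosome made up 2.41% of the summed length of the lists and 5.96%, 5.83% and 5.93% of all covered bp.

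**Figure D1:**
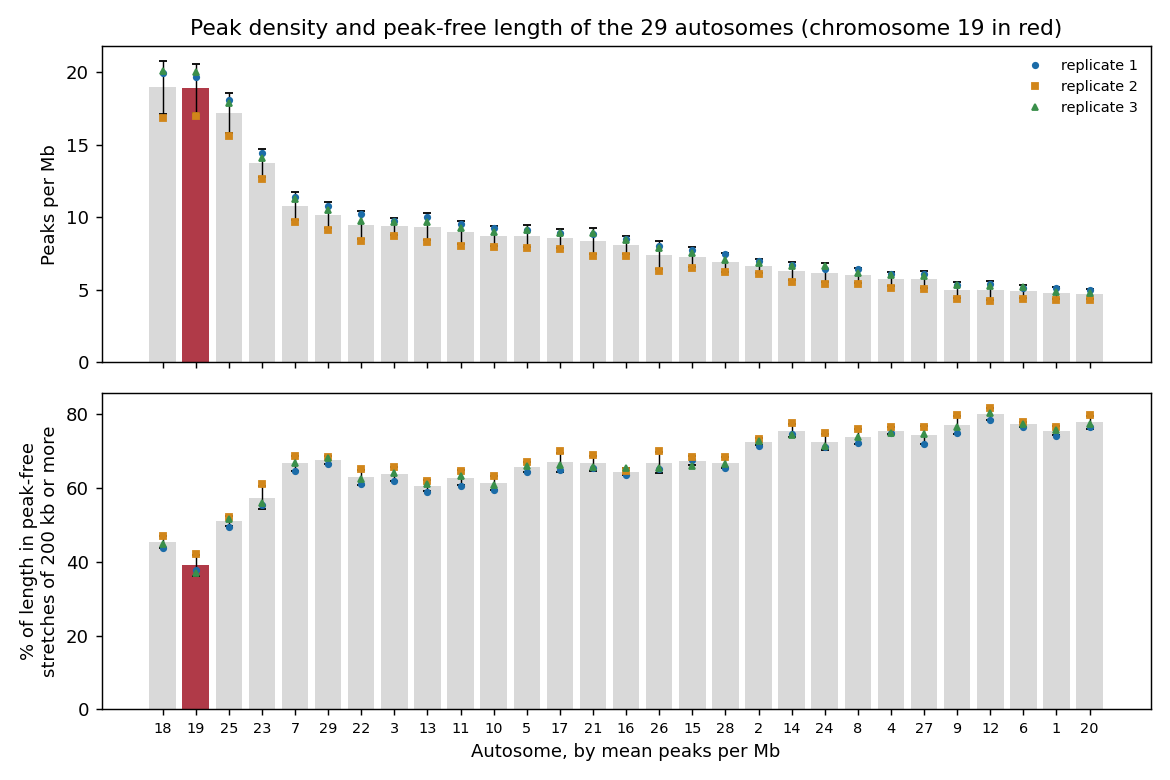
Upper panel, H3K4me3 peaks per Mb of each autosome. Lower panel, the percentage of each autosome's length in stretches of 200 kb or more between neighbouring peaks. Bars are means of 3 replicates, error bars are 1 SD and symbols are the replicates. Chromosome 19, in red, stands beside chromosome 18 in density at 18.9 per Mb and has the lowest bar of the lower panel at 39.0%.

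The high density was spread over much of the chromosome rather than being held in a few places. Among its 64 complete windows of 1 Mb, numbered from the start of the chromosome, the median window held 18.5, 16 and 18.5 peaks in replicates 1, 2 and 3. The other autosomes had 2434 such windows with a median of 5 peaks in each list. Averaged over replicates, the chromosome 19 median of 17.8 was the highest of the 29 autosomes, followed by 11.3 on chromosome 18, 9.0 on chromosome 25 and 8.33 on chromosome 23. The coefficient of variation between windows was 0.734, 0.775 and 0.738, the lowest of the 29 autosomes in every list. On chromosome 18, which has nearly the same density, it was 0.943, 0.962 and 0.981. Windows with a mean of 10 peaks or more made up 70.3% of chromosome 19 and 56.9% of chromosome 18, the next highest. For windows with 30 peaks or more, chromosome 19 was not the leader, since they made up 18.8% of its windows, 23.1% of those of chromosome 18 and 23.8% of those of chromosome 25.

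Along the chromosome, peaks were sparse in windows 1 to 21, with 10.1 ± 1.08 per Mb, and denser in windows 22 to 43, with 24.8 ± 2.01 per Mb, and in windows 44 to 64, with 21.5 ± 1.95 per Mb (SD, n = 3). This order was the same in each replicate. Window 28 was the densest with 74, 67 and 71 peaks, followed by window 44 with 52, 47 and 54 and window 57 with 50, 42 and 52. Window 29, next to the densest, held 42, 41 and 44 peaks, and window 52 held 42, 37 and 44. These 5 windows held 20.7%, 21.6% and 20.7% of the peaks of the complete windows. In every list the replicate values of window 28 lay above those of every other window of the chromosome.

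At the other end, windows 1 and 5 held no peak in any list, and windows 4 and 17 held 1, 0 and 1 peaks. Window 3 held a single peak in each list. The 4 lowest windows other than window 17 are thus all within the first 5 Mb. Windows below 2 peaks on average were 6 of the 64 of chromosome 19 (9.38%), 13 of the 65 of chromosome 18 and 591 of the 2434 of all other autosomes (24.3%). A run of 14 neighbouring windows, from window 34 to window 47, had 10 peaks or more in each on average, and it held 421, 381 and 445 peaks, or 33.4%, 35.1% and 34.7% of the chromosome's peaks in complete windows. Only chromosome 18 had a longer run, of 22 windows.

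**Figure D2:**
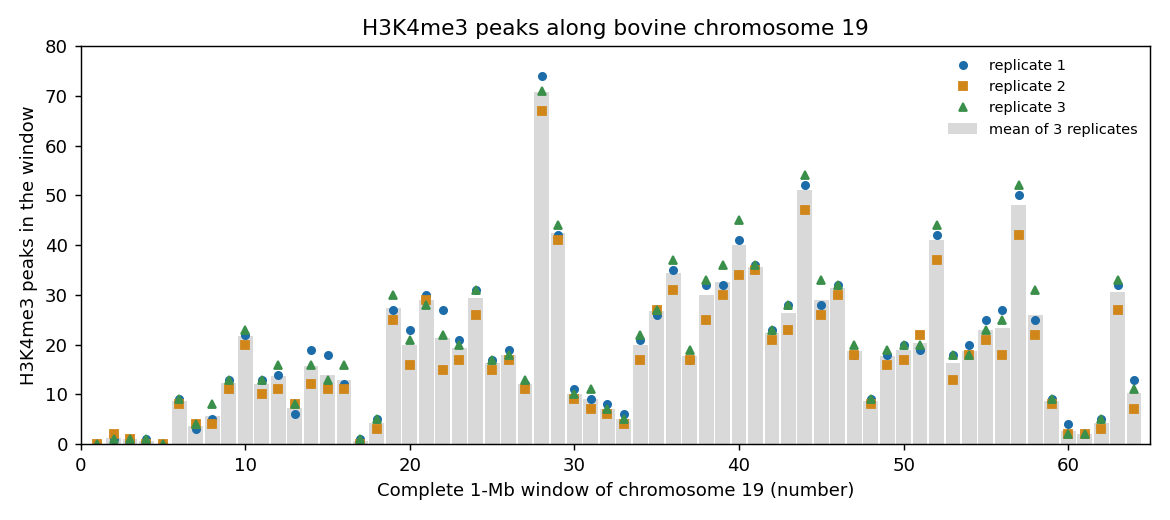
Number of H3K4me3 peaks in each complete 1-Mb window of chromosome 19, in order along the chromosome. Grey bars are means over 3 replicates and symbols are the replicates. Window 28 stands highest with 74, 67 and 71 peaks, and windows 1 and 5 are empty.

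Replicates agreed on this profile. Across the 64 windows, the Pearson correlation of peak numbers was 0.984 between replicates 1 and 2, 0.990 between 1 and 3 and 0.986 between 2 and 3. These are descriptions, since windows of a chromosome share their libraries and their sequence composition. Replicate 2, which has the fewest peaks in all, was below both other replicates in 50 of 64 windows and above both in 2. Among the 27 windows with 20 peaks or more on average, its number relative to the mean of replicates 1 and 3 ranged from 0.612 in window 22 to 1.13 in window 51. Window 22, with 27, 15 and 22 peaks, was where the replicates were farthest apart on this measure.

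The densest window spans chr19:27000001-28000000 and was second among all autosomal windows, with a mean of 70.7 ± 3.51 peaks against 71.3 ± 4.16 in the densest window of chromosome 23. The order of these 2 windows changed with the list, with 74, 67 and 71 peaks against 68, 70 and 76 in replicates 1, 2 and 3. The summed width of its peaks was 219, 163 and 178 kb in replicates 1, 2 and 3. The median distance between its neighbouring peaks was 5.31, 6.12 and 5.53 kb, compared with 16.7, 19.2 and 15.8 kb over the whole chromosome. Its peaks had median widths of 2372, 2207 and 2301 bp and median score percentiles of 58.9, 53.1 and 56.9, where a percentile ranks a peak's score within its own list. Merging the 3 lists gave 77 regions in the window, of which 58 had a peak in every list, 10 in 2 lists and 9 in 1. Most of the window's regions were therefore called in every pool, as were 69.7% of the regions of the whole chromosome.

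**Figure D3:**
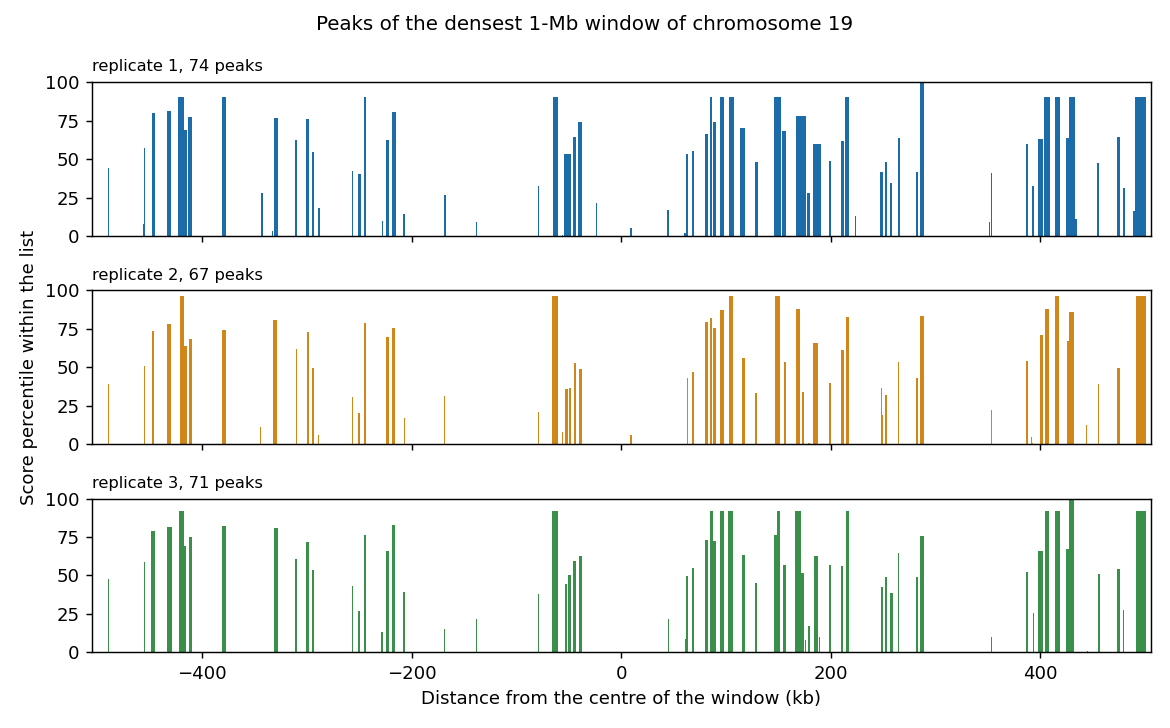
Peaks of the densest 1-Mb window of chromosome 19 in each replicate, placed by distance from the centre of the window in kb. The width of a bar is the width of the peak and its height is the score percentile within that replicate's list. The 74, 67 and 71 peaks fall in like places in the 3 lists, and several wide bars end at the tied highest scores.

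The median peak width of chromosome 19 lay close to that of the other autosomes. Median widths were 2139.5, 1945 and 1743 bp in replicates 1, 2 and 3, against medians over the other autosomes of 2060, 1934 and 1770.25 bp. The mean difference was 21.1 ± 54.1 bp (SD, n = 3), positive in 2 of 3 replicates, with a two-sided exact sign-flip test over replicates giving p = 0.75 (Benjamini-Hochberg adjusted p = 0.75 over 3 differences). With 3 replicates this test cannot give a p below 0.25. The mean width, which the widest peaks weigh on more, was 2592, 2243 and 2121 bp against medians over the other autosomes of 2420, 2180 and 2074 bp. That difference was larger, 93.8 ± 68.3 bp (SD, n = 3), and positive in 3 of 3 replicates, with p = 0.25 in the same exact test. The lists also differed in width among themselves. Of peaks matched one to one, those of replicate 1 were wider than those of replicate 2 in 85.2% of 947 pairs and wider than those of replicate 3 in 80.9% of 1047 pairs. Those of replicate 2 were wider than those of replicate 3 in 43.4% of 942 pairs, with medians of 2004 and 2071 bp, the opposite order to the medians over all peaks.

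The upper end of the widths gave many wide peaks in number. Peaks of 5 kb or more numbered 99, 38 and 51, which was 7.86%, 3.50% and 3.98% of the chromosome's peaks. As a share this ranked 2nd, 11th and 9th of 29 autosomes. When the lists were merged, 47 regions of chromosome 19 were covered over 5 kb or more in each of the 3 replicates, the largest number on any autosome, out of 660. Per 10 Mb this was 7.34, against a median of 2.52 and a highest value of 5.84 on the other autosomes. Both values scale with the number of peaks, and as a share of the 967 regions with a peak in every list the 47 regions were 4.86%, which ranked 4th, with a median of 3.99% and a highest value of 6.30% on the other autosomes. Among the 47, 3 regions were covered over 10 kb or more in each replicate.

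The widest region was chr19:28134105-28147892 in window 29, covered over 13747, 12101 and 13370 bp in replicates 1, 2 and 3. Next came chr19:20699979-20711901 in window 21 with 11923, 11111 and 11599 bp, and chr19:38170361-38182482 in window 39 with 11114, 10667 and 11822 bp. The region chr19:27990370-28001176 at the end of window 28 was covered over 10807, 9646 and 9471 bp, and chr19:48680149-48690226 in window 49 over 9942, 9429 and 9692 bp. All 5 had the score of 3100, at which many of the strongest peaks are tied, in each list. The widest region was 1 peak in replicate 1 and 2 peaks in each of the others, so a broad domain here can be reported as several neighbouring peaks. Windows 28 and 29, which adjoin, together hold 2 of these 5 regions.

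Scores were at about the same level as on other autosomes. The median score percentile of chromosome 19 was 51.2, 50.5 and 50.1, against medians over the other autosomes of 49.0, 50.2 and 50.0. The mean difference was 0.904 ± 1.17 percentile points (SD, n = 3), positive in 3 of 3 replicates, with p = 0.25 in the two-sided exact sign-flip test (adjusted p = 0.75), the smallest value 3 replicates can give. Scores of 3100 or more were found in 258, 91 and 222 peaks, more than on any other autosome in each list, but as a share of the chromosome's peaks, 20.5%, 8.39% and 17.3%, they ranked 5th, 5th and 8th. Scores under 100 were found in 15.6%, 18.6% and 18.6% of its peaks, against medians of 18.6%, 19.2% and 19.1% on the other autosomes. In 90 regions the score reached 3100 in all 3 lists. This was 9.31% of the 967 regions with a peak in every list and ranked 4th, with a median of 7.67% on the other autosomes.

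**Figure D4:**
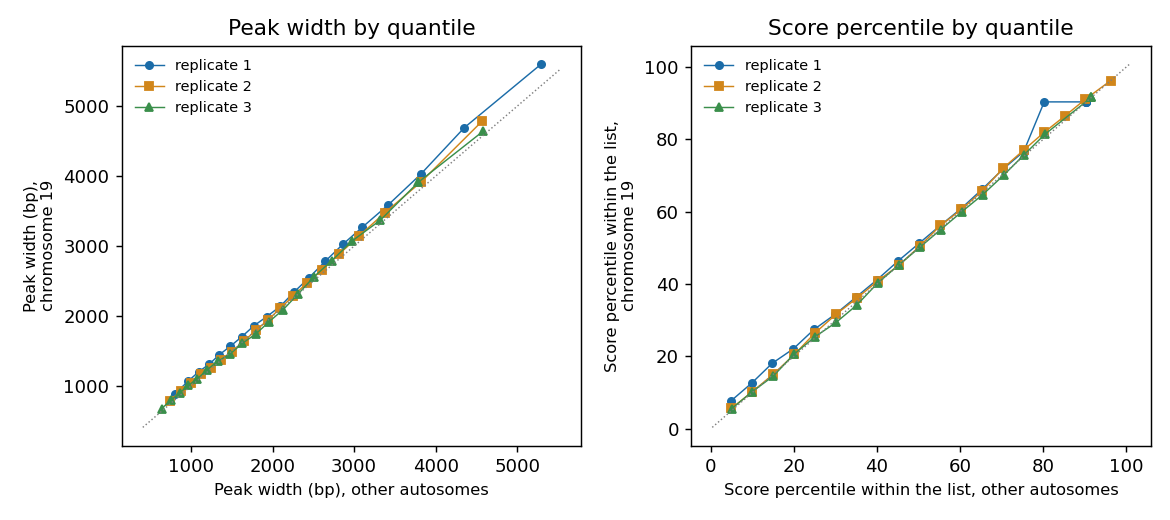
Quantiles of peak width in bp (left) and of score percentile (right) of chromosome 19 against the same quantiles of all other autosomes, from the 5th to the 95th in steps of 5, for each replicate. The dotted line marks equal values. Most points lie on or near the line, at the median with 2139.5, 1945 and 1743 bp on chromosome 19. Replicate 1 lies above it at the upper widths, with 4692 against 4351 bp at the 90th. The uppermost points of the right panel are the tie at a score of 3100.

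By mean score percentile, the leading regions were chr19:49576254-49580585, chr19:20397040-20400467, chr19:34765530-34772414, chr19:28458648-28466417 and chr19:11285401-11289914. Each had a score of 3100 in replicates 1 and 3. Their place at the head and their order thus rest on replicate 2 alone, where the scores were 3233.06, 3218.29, 3213.98, 3177.13 and 3147.87. The percentile puts these scores over the tie at 3100, although scores above 3100 cannot be ranked over it. The 5 regions are therefore not set apart from the rest of the 90 regions that reached 3100 in all 3 lists. They were not among the 5 widest regions, being covered on average over 4084, 3018, 6027, 7647 and 4230 bp. Across all peaks of the chromosome, width and score nevertheless went together, with Spearman correlations of 0.810, 0.857 and 0.883, close to the 0.830, 0.866 and 0.884 of the other autosomes. None of the peaks of 5 kb or more had a score under the median of its list. Both measures come from the same reads and depend on the depth of the library.

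Windows with few peaks also had narrower and lower-scoring peaks. In the 19 windows with fewer than 10 peaks on average, median width was 1689, 1499.5 and 1267.5 bp and median score percentile 39.0, 35.1 and 29.9. In the 12 windows with 30 peaks or more, the widths were 2243.5, 1948 and 1825 bp and the percentiles 53.8, 50.2 and 51.2. The 33 windows in between had percentiles of 50.9, 53.2 and 50.6, so only the sparse windows stood apart. These are descriptions over 84, 70 and 88 peaks in the sparse windows, and they have no test, because the same peaks set the classes.

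Clusters, taken as 5 or more peaks with at most 10 kb between neighbours, numbered 24, 20 and 28 on chromosome 19 and held 12.0%, 10.5% and 13.7% of its peaks. The medians over the other autosomes were 4.11%, 2.81% and 4.59%. Chromosome 23 had the highest shares, 24.8%, 25.7% and 22.3%, and chromosome 19 ranked 6th, 4th and 5th. The share in clusters was thus higher than on most autosomes but was not as high in rank as the density. In each list, 14 of the clusters overlapped a cluster of both other lists. Window 28 had 4, 5 and 5 clusters with 26, 32 and 34 peaks.

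The largest cluster of replicates 1 and 3 was in window 39, chr19:38481994-38533184 with 11 peaks and chr19:38482178-38535345 with 12. Replicate 2 had 5 clustered peaks there, from 38516074 to 38533299. No peak of this cluster reached a score of 3100 in any list, and its median score percentile was 27.4, 16.9 and 33.8 in replicates 1, 2 and 3. In replicate 2 the largest clusters, with 8 peaks each, were chr19:28362765-28412053 in window 29 and chr19:27886096-27932014 in window 28. Both had counterparts in replicate 1, of 9 and 8 peaks. The cluster of window 28 that spans chr19:27579781-27630884 in replicate 1 had 7 peaks in each list and high median percentiles of 73.9, 79.7 and 72.9. Large clusters therefore included both low-scoring and high-scoring ones. Over all clusters, peaks inside had median percentiles of 50.6, 48.9 and 48.1 and peaks outside 51.5, 50.6 and 50.4.

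In peak-free length, unlike in clusters, chromosome 19 held the extreme place among the autosomes. Distances of 200 kb or more between neighbouring peaks took 37.9%, 42.2% and 37.0% of its length, the lowest share of the 29 autosomes in each list. Chromosome 18 followed with 43.9%, 47.0% and 44.9%, and the medians over the other autosomes were 65.5%, 68.8% and 66.3%. There were 55, 62 and 53 such stretches, of which 5, 3 and 5 were longer than 1 Mb, again the fewest of any autosome in each list. The shortest distances were not particular to it, as its median distance of 16.7, 19.2 and 15.8 kb was the 4th shortest. Thus chromosomes 18, 23 and 25 had peaks packed more closely at the median but left more of their length free of peaks.

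**Figure D5:**
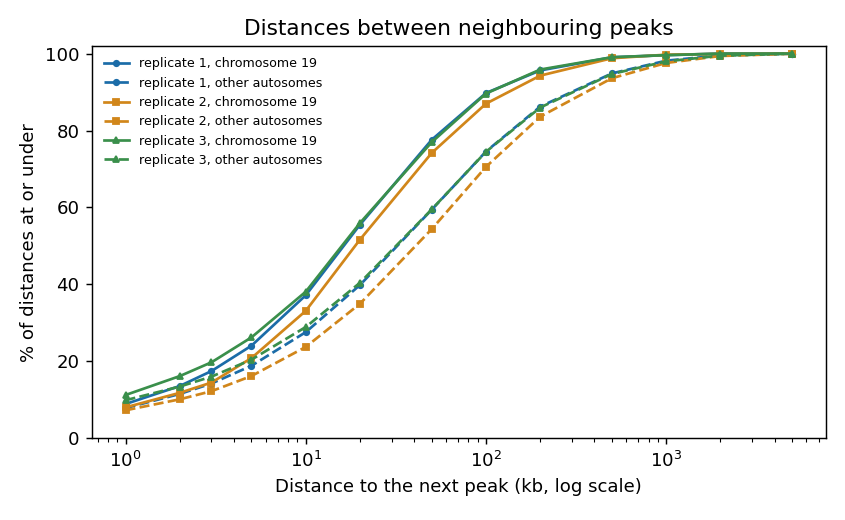
Percentage of distances between neighbouring peaks that are at or under each length in kb (log scale), for chromosome 19 (solid lines) and all other autosomes (dashed lines) in each replicate. At 100 kb the solid lines stand at 89.8%, 87.0% and 89.6% and the dashed lines at 74.5%, 70.6% and 74.5%.

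Stretches without a peak in any of the 3 lists numbered 53 and took 34.2% of the chromosome, or 21.9 Mb. The longest was chr19:3878385-5220484, of 1342.1 kb. It was followed by chr19:16015573-17267116 with 1251.5 kb, chr19:2803864-3876757 with 1072.9 kb, chr19:1806353-2803140 with 996.8 kb and chr19:6728212-7607056 with 878.8 kb. Of these 5, only the stretch around 16 to 17 Mb lay outside the first 8 Mb. The 4th and 5th begin after a peak called in replicate 2 alone. In replicates 1 and 3 the stretch that holds the 4th was 1327.8 and 1327.5 kb long. The one that holds the 5th was 1166.9 and 1167.1 kb long. In the shorter list of replicate 2 the longest stretch was 2416.9 kb, from 2803864 to 5220754, where replicates 1 and 3 had a single peak in window 4. The first peak of chromosome 19 began at 1472 kb, later than that of any other autosome, against a median of 169 kb and a highest value of 1022 kb. This leading stretch is not counted among the distances between peaks. Adding it for all autosomes left chromosome 19 the lowest, with 41.3% against 46.8% for the next.

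Called regions recurred between pools about as often as elsewhere. Of the peaks on chromosome 19, 977 of 1260 in replicate 1 were overlapped by at least 1 bp in both other lists, which is 77.5% (95% Wilson interval 75.2 to 79.8) where the whole list has 76.2%. In replicate 2 it was 1017 of 1085, or 93.7% (92.1 to 95.0), beside 91.7% of the whole list. In replicate 3 it was 1017 of 1282, or 79.3% (77.0 to 81.5), beside 79.9%. The mean difference from the other autosomes was 1.03 ± 1.26 percentage points (SD, n = 3), positive in 2 of 3 replicates, with p = 0.5 in the two-sided exact sign-flip test (adjusted p = 0.75). The intervals cover counting error only, and peaks of 1 list are not independent samples of embryos.

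Merging the 3 lists gave 1388 regions, of which 967 (69.7%) had a peak in every list, 169 in 2 lists and 252 (18.2%) in 1. The share in every list ranked 6th of 29, with a median of 67.6% on the other autosomes. The share in a single list ranked 27th, with a median of 21.3%. In 887 of the 967 regions each list had exactly 1 peak. Of the regions in 2 lists, 136 were shared by replicates 1 and 3, 23 by replicates 1 and 2 and 10 by replicates 2 and 3. Those 136 regions had median score percentiles of 19.4 in replicate 1 and 17.7 in replicate 3, low in both lists. No peak was called there in replicate 2, which does not show that the mark was absent, and the part of read depth, which the lists do not hold, was not tested. Regions in every list had median percentiles of 62.4, 56.0 and 61.7. Among peaks matched one to one, Spearman correlations of the score between replicates were 0.949, 0.962 and 0.955.

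Peaks found in a single list numbered 120, 32 and 100 in replicates 1, 2 and 3, which is 9.52%, 2.95% and 7.80% of the chromosome's peaks. The medians over the other autosomes were 12.4%, 4.38% and 7.60%, so the share was below the median in replicates 1 and 2 and slightly above it in replicate 3. Most of these peaks had low scores. Their median scores were 80.8, 62.1 and 68.4, against 988, 600 and 820 for the other peaks of the chromosome, and 70.0%, 78.1% and 86.0% of them scored under 100. A pair of peaks went against this. In replicate 1, chr19:48767888-48769249 was 1362 bp wide with a score of 1266.77, at the 60.2nd percentile of its list, and the nearest peaks of replicates 2 and 3 lay 17.1 and 16.8 kb away. In replicate 2, chr19:1805691-1806352 was only 662 bp wide but had a score of 1677.89, at the 77.6th percentile, in a stretch where the nearest peaks of the other lists were 330 kb away. In replicate 3 the highest-scoring peak of this kind was chr19:63498623-63500328, with a score of 190.91. Each of these rests on 1 pool.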

How the data were processed

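Chromatin of in vitro produced bovine blastocysts was analysed by H3K4me3 ChIP-seq in 3 replicates, each with an input. Per the labels and the study's methods, 51-base single-end reads were aligned to UMD 3.1.1 (bosTau8) with Bowtie 1.2.3, duplicates were removed with Picard, and MACS called peaks per replicate against its input. The authors deposited 1 list per replicate, with chromosome, start, end and the peak caller's score, whose scale is not given in the sources used here. Scores depend on depth and were compared as percentiles (average ranks) within a list. Read depth is not in the lists.

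Values were computed with pandas 2.3.3, SciPy 1.17.1 and NumPy 2.4.6 under Python 3.11.15, and Matplotlib 3.10.9 drew figures. Overlaps (1 bp or more) were checked with bedtools 2.31.1 on the deposited lists. The overlap code was also run on made-up lists with a known shared part. A peak was placed in a window by its midpoint. Starts are 1-based. Differences between chromosome 19 and the median of the other autosomes (overlap: all their peaks pooled) were tested by two-sided exact sign-flip over replicates. By rule, the text names the 5 highest and lowest windows, widest and highest-scoring regions, largest clusters and longest stretches, and the top single-list peaks, of which it prints the leading ones. The run of windows and the window classes were added later. The members and lists were chosen with earlier results of these data known. Alternatives were each replicate left out, a score of at least 100, merged peaks and other definitions. The inputs have no list and were not analysed here, and gene models of UMD 3.1.1 were not used here.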

Additional observations from a re-analysis of the deposited data

How the results depend on the processing

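Results were recomputed with each replicate left out, with other filters and with other definitions, and 49 of 71 recomputed values moved by no more than 1 SD between replicates or kept their direction. With peaks of a score of at least 100, chromosome 19 had 15.6 peaks per Mb, a ratio of 2.50 to the median autosome, a median width of 2248 bp, a median percentile of 49.9, 8.11% of peaks in clusters, 43.3% of its length in peak-free stretches and 59.7 peaks in the highest window. The differences in percentile and in overlap then changed sign, to -0.31 and -1.07. With peaks less than 1000 bp apart merged, the values were 17.1 per Mb, 2152 bp, 7.88% in clusters and 63.3 in the highest window. A reciprocal overlap of 50% gave 73.4% and a difference of -1.80. The ratio from covered bp was 2.55. Clusters held 3.21% at gaps of at most 5 kb, 32.7% at 20 kb and 31.6% with at least 3 peaks. Stretches of at least 100 kb took 55.2% and of at least 500 kb 17.2%. The values for clusters and stretches were taken under altered definitions, and the cause of the changes was not tested. Leaving out each replicate moved the width difference between -8.13 (without replicate 1, a change of sign) and 45.3 bp, the percentile difference between 0.23 and 1.29 and the overlap difference between 0.32 and 1.49. The overlap was then with the single remaining list rather than with both other lists, so it is not the same measure. None of these tests could pass 0.05 with 3 replicates or fewer. Chromosome 19 remained the lowest of 29 autosomes in peak-free share under every setting of score, merging and stretch length tried, and without replicate 2. Counting the stretch before the first peak was an alternative chosen after seeing the data. No paired analysis was possible because the input libraries that share the replicate numbers have no peak list. Read depth is not in the lists, so its part in the regions missing from replicate 2 was not tested. Ties at a score of 3100, and scores above it that cannot be ranked over the tie, limit the order of the strongest peaks.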
